A study of Mus musculus with 90 samples.

Results

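The inhibitory receptors of T cells were followed as 9 genes of the 23420 in the count table: Pdcd1 (PD-1), Ctla4, Lag3, Tigit, Havcr2 (TIM-3), Cd160, Btla, Cd244 (2B4) and 4632428N05Rik (VISTA, also named Vsir). They were chosen by name as the receptors that restrain T cell responses, and all 9 were found in the table and passed the filter on low counts in both series of libraries. The first series held 30 libraries from wild-type mice, in 10 groups of 3. It covered regulatory T cells (Tregs) sorted as IL10 cells, as Ebi3 cells (the gene encodes one chain of IL-35) or as cells with neither, the double-negative (DN) cells. Each was taken from tumours (TIL), from non-draining lymph nodes (ndLN) or from a source labelled NaiveTcell, here called naive, and naive effector T cells (Teff) served as the non-Treg group. The second series held 60 libraries of CD8 T cells, with 12 in each of 5 populations: non-draining lymph node (NDLN), and 4 from tumours. Among the tumour cells NEG cells lacked both PD-1 and TIM-3, INT cells had intermediate PD-1 and SP cells had high PD-1, in each case without TIM-3, and DP cells had high PD-1 along with TIM-3. By genotype the 12 were 3 of yfp, 4 of DKO, 2 of Il10 and 3 of Ebi3L. According to the series' design text, the knockouts of IL-10, IL-35 or both were Treg-specific, so the deletion was placed in Tregs and not in the CD8 cells sequenced. From their names, Il10 is read here as the knockout of IL-10, Ebi3L as that of IL-35 and DKO as that of both. The yfp mice are taken as the control without a knockout. The sources used here do not give what drives the deletion, the kind of tumour or the animals' age. Cells were double-sorted to a stated purity, and cDNA was made with SMART-Seq v4 for the Treg series and v3 for CD8 cells, so levels are compared within a series.

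Inhibitory receptors are induced or kept on T cells by antigen receptor signalling, and most pass an inhibitory signal through phosphatases or by taking ligands away from an activating receptor. CTLA-4 binds CD80 and CD86 more tightly than the costimulatory receptor CD28 does, and it is part of the suppressive equipment of Tregs. PD-1 binds PD-L1 and PD-L2, TIGIT competes with CD226 for CD155, and LAG-3 binds MHC class II. In tumours, CD8 T cells under lasting stimulation accumulate several of these receptors, and the cells with high PD-1 and TIM-3 are known as terminally exhausted.

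The 9 genes lie at these places in GENCODE vM21 on mm10. Ctla4 (chr1:60887000-60915832), Pdcd1 (chr1:94038305-94052553, minus strand) and Cd244 (as Cd244a, chr1:171559193-171609746) are on chromosome 1. Tigit (chr16:43648867-43664146, minus strand) and Btla (chr16:45224315-45257670) are on chromosome 16. Havcr2 is at chr11:46454935-46481255, Lag3 at chr6:124904361-124911705 on the minus strand, Cd160 at chr3:96798763-96829351 on the minus strand and 4632428N05Rik, as Vsir, at chr10:60346851-60372684. Exons of Cd160 overlap those of Pdzk1 on the opposite strand by 68 bases, and the strand setting of the counting is not given, so reads of that stretch cannot be assigned to one of the pair. Because the counts are per gene, they span all exons of each locus.

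The RefSeq promoter table (GRCm38.p6) held entries for 8 of the 9 genes, with 2 for Cd160 and so 9 promoters. The 250 bases before the annotated start are shown for 4 genes that carry the main patterns: Tigit and Ctla4, which were high together in IL10 Tregs, and Cd244 and Btla, which moved in opposite directions between the SP and DP CD8 populations. Capitals mark matches, on either strand, to short motifs of factors that act in activated T cells. These were AP-1 (TGANTCA), NFAT (GGAAAA), RUNX (TGTGGT) and TCF (CTTTGA), and no matches overlapped each other in these windows. The coordinates are chr16:43664185-43664434 on the minus strand, chr1:60908775-60909024, chr1:171558943-171559192 and chr16:45224087-45224336 on the plus strand, and each is printed 5′ to 3′ in the gene's own direction.
Tigit: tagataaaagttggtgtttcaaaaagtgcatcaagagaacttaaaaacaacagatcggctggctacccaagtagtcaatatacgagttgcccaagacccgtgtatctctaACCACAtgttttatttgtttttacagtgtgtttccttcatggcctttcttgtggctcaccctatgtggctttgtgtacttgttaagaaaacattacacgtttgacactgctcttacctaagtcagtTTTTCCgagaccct
Ctla4: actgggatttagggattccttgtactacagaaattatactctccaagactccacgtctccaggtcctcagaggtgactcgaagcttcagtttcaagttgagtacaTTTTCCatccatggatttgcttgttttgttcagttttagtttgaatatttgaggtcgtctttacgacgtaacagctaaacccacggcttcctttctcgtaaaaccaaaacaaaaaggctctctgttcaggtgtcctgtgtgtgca
Cd244: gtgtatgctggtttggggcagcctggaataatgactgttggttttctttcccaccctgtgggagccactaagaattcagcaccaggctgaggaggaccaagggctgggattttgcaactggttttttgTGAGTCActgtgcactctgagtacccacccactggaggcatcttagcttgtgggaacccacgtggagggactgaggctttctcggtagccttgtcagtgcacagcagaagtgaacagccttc
Btla: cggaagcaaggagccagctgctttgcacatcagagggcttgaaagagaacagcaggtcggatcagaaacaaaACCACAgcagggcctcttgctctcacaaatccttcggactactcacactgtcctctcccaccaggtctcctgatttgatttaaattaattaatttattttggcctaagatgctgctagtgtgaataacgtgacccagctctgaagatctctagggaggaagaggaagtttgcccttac
The AP-1 letters occurred in 2 of the 9 receptor promoters, those of Cd244 and Havcr2, and in 6.75% of 32851 promoters of the same length. NFAT letters occurred in 2 of 9, those of Tigit and Ctla4, against 20.4% of all promoters. RUNX letters occurred in 5 of 9, including Tigit and Btla, against 4614 of the 32851 promoters, and TCF letters in 1 of 9 against 13.8%. A match is only a run of letters and was not tested for binding.

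Depth was 9.73 to 20.2 M counts per library for the Treg series and 19.2 to 47.7 M for CD8 cells. Levels are CPM, the count over the library total in units of 1 M, and 3 counts correspond to at most 0.308 CPM. The sorts were checked on markers. Foxp3, Il2ra and Ikzf2, which mark Tregs, summed to 946 to 1600 CPM in the Treg groups and 21.6 to 44.8 CPM in Teff. Cd8a and Cd8b1 summed to 1430 to 4090 CPM in CD8 libraries and to at most 43.2 CPM in the Treg series. Erythroid and platelet markers summed to at most 1.6 CPM, stromal markers to at most 9.22 CPM and pigment cell markers to at most 56.3 CPM in any library, and B cell, myeloid and NK markers are given beside the results they move with. Each change is a log2 fold change ± SE by edgeR's quasi-likelihood test with batch as a term, and a gene rose or fell where its Benjamini-Hochberg adjusted p over all genes was under 0.05. The test gives no SE, so it was derived as the absolute log2 fold change over the square root of the test's F value.

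Tregs from the naive source carried most of these receptors at higher levels than Teff. Ctla4, the CD80 and CD86 receptor, stood at 305, 350 and 370 CPM in naive DN Tregs and at 13.4, 22.8 and 8.42 CPM in Teff. The ranges were far apart, and Ctla4 rose by 4.59 ± 0.21 (adjusted p = 1.63e-14). Tigit rose by 3.98 ± 0.44, Lag3 by 3.46 ± 0.67, Pdcd1 by 2.47 ± 0.13 and Cd160 by 2.21 ± 0.44. VISTA, a receptor of resting T cells and myeloid cells, fell by 0.43 ± 0.14 (adjusted p = 0.0391). The call for VISTA was lost without replicate 1 or 2, that for Lag3 without replicate 1 and that for Cd160 without replicate 3. Btla, the HVEM receptor, stood at 160 to 261 CPM in naive DN and 204 to 279 CPM in Teff, and these ranges overlapped. Havcr2 and Cd244 were at or near 0 in both groups. Thus 5 of 9 receptors rose and 1 fell, where 12.2% of 12907 genes were called.

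Outside the tumour, IL10 Tregs had the highest levels of Tigit, Lag3 and Ctla4. Tigit stood at 36.7, 41.7 and 103 CPM in naive DN Tregs, at 258, 265 and 361 CPM in naive Ebi3 cells and at 826, 924 and 1260 CPM in naive IL10 cells. The 3 populations did not overlap, with IL10 cells highest. Lag3, the MHC class II receptor, stood at 7.97, 10.9 and 19 CPM in naive DN, at 13.7, 18.1 and 6.47 CPM in naive Ebi3 and at 120, 302 and 236 CPM in naive IL10 cells. Here the DN and Ebi3 libraries overlapped and the IL10 libraries lay far above both. Ctla4 stood at 1650, 1950 and 1940 CPM in naive IL10 cells and 541, 560 and 494 CPM in naive Ebi3 cells, both above the 305 to 370 CPM of DN. Pdcd1 behaved differently, since the IL10 libraries at 245, 395 and 315 CPM and the Ebi3 libraries at 251, 381 and 347 CPM covered the same range, above the 75.2, 93.8 and 105 CPM of DN cells.

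In naive IL10 against DN Tregs 5 receptors rose and 2 fell, where 17.8% of genes were called. Tigit rose by 4.11 ± 0.39 (adjusted p = 1.29e-07), Lag3 by 4.03 ± 0.55 (adjusted p = 1.69e-05), Ctla4 by 2.43 ± 0.18 and Pdcd1 by 1.79 ± 0.13. Havcr2 passed the test as well, with 69.1, 82.3 and 103 CPM in IL10 cells against no more than 0.19 CPM in DN cells, a level of so few counts that no fold is given. Btla fell by 0.86 ± 0.16, from 160, 201 and 261 CPM in DN to 83.5, 128 and 133 CPM in IL10 cells. Cd160, which shares the ligand HVEM with Btla, fell by 1.29 ± 0.42 (adjusted p = 0.0339), and its call was lost without any one of the 3 replicates. VISTA stood at 0.26 ± 0.14 and did not pass. The median over the 9 receptors was 2.43, against 0.01 over all genes tested.

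Naive Ebi3 Tregs shared part of this pattern. Against DN, 4 receptors rose and 1 fell, where 12.8% of genes were called: Tigit by 2.25 ± 0.36, Pdcd1 by 1.75 ± 0.13 and Ctla4 by 0.56 ± 0.18 (adjusted p = 0.0363), with Havcr2 at 6.04, 0 and 9.27 CPM, and VISTA fell by 0.52 ± 0.14. Lag3, at -0.06 ± 0.53, did not pass. The call for VISTA was lost without any one of the 3 replicates, that for Ctla4 without replicate 1 or 2 and that for Havcr2 without replicate 1 or 3, and the sets of comparisons with DN share the DN libraries. Directly between the sorted populations, IL10 against Ebi3, 5 receptors were higher and 2 lower, where 5.48% of genes were called. Lag3 was higher in IL10 cells by 4.09 ± 0.56, Havcr2 by 4.25 ± 0.78, Ctla4 by 1.88 ± 0.18, Tigit by 1.85 ± 0.35 and VISTA by 0.79 ± 0.14. Cd160 was lower by 2.05 ± 0.43 and Btla by 1.21 ± 0.16. Without replicate 2 the call for Tigit was lost here.

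Lymph node Tregs repeated this order. Tigit stood at 129, 72.4 and 173 CPM in ndLN DN cells and at 1330, 1240 and 1410 CPM in ndLN IL10 cells, with Ebi3 cells between at 281 to 379 CPM. Ctla4 stood at 468, 479 and 541 CPM in DN and 2220, 2100 and 2160 CPM in IL10 cells. Again no library of one population reached those of the other. In ndLN IL10 against DN, 6 receptors rose and 2 fell, where 16.2% of genes were called. Havcr2 rose by 3.81 ± 0.76, Tigit by 3.48 ± 0.37, Lag3 by 3.21 ± 0.53, Ctla4 by 2.13 ± 0.18, Pdcd1 by 1.26 ± 0.12 and VISTA by 0.55 ± 0.14. Cd160 fell by 1.26 ± 0.42 (adjusted p = 0.0412) and Btla by 0.54 ± 0.16 (adjusted p = 0.0219), where the call for Cd160 was lost without any one of the 3 replicates, that for Btla without replicate 1 or 3 and that for VISTA without replicate 2. In ndLN Ebi3 against DN, where 6.96% of genes rose and 6.07% fell, Tigit rose by 1.40 ± 0.35, Pdcd1 rose by 0.81 ± 0.12 and VISTA fell by 0.66 ± 0.14, while Ctla4 stood at 0.45 ± 0.18 (adjusted p = 0.0899, and 0.026 in DESeq2) and Lag3 passed, as lower, only without replicate 3 (adjusted p = 0.0258). The call for VISTA was lost without replicate 1 and that for Tigit without replicate 2. In ndLN IL10 against Ebi3, where 5.07% of genes were called, 6 receptors were higher in IL10 cells and 2 lower, led by Lag3 at 3.97 ± 0.54, with Tigit at 2.08 ± 0.35, a call lost without replicate 2. The calls for Havcr2, Btla and Cd160 were lost without any one of the 3 replicates, and that for Pdcd1 without replicate 2 or 3. Against the same population of the naive source, edgeR called 0 receptors in ndLN DN, IL10 or Ebi3 cells, where 0.0852%, 0.0542% and 0.00775% of genes were called, and 5, 1 and 3 receptors had an unadjusted p under 0.05. In DN cells DESeq2 called 2, Pdcd1 (adjusted p = 0.0223) and Havcr2 (adjusted p = 0.000713), and edgeR called Lag3 without replicate 3 (adjusted p = 0.00248); for IL10 and Ebi3 cells DESeq2 called 0, and limma called 0 in all 3.

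**Figure D1:**
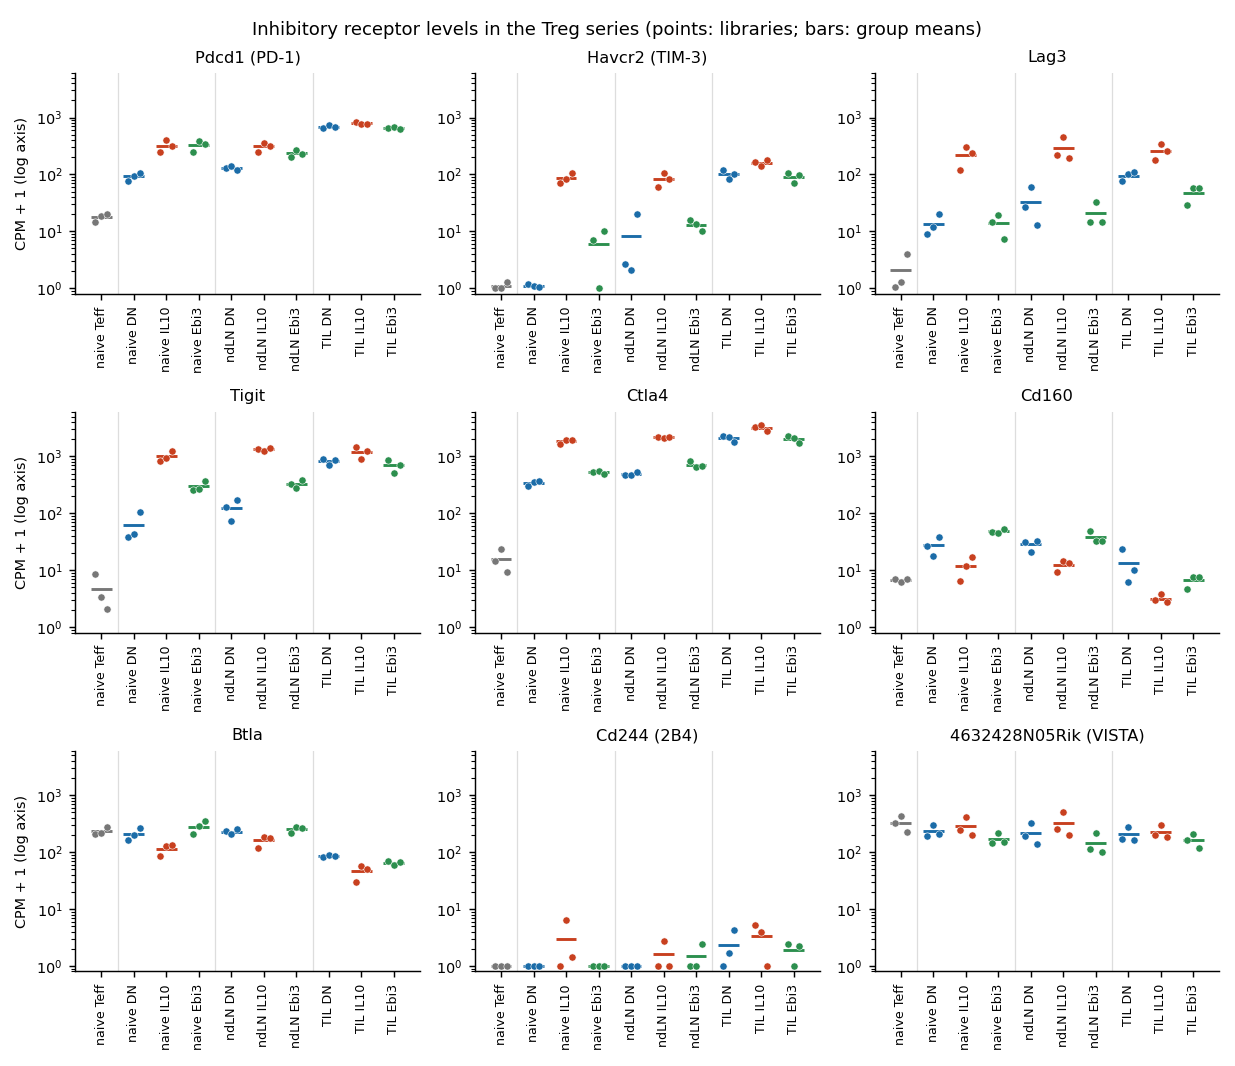
Level of each receptor in the Treg series, as CPM + 1 on a log axis, with 1 point per library (3 per group) and a bar at the group mean; blue is DN, red IL10, green Ebi3 and grey Teff. IL10 libraries are highest for Tigit, Ctla4, Lag3 and Havcr2 in the naive and ndLN panels, where Tigit runs from 36.7 CPM in a naive DN library to 1410 CPM in an ndLN IL10 library.

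In tumour Tregs Pdcd1 and Ctla4 were above their lymph node levels in all 3 sorted populations, while Btla was at its lowest group means of the Treg series. Pdcd1 stood at 662, 729 and 679 CPM in TIL DN, 818, 776 and 761 CPM in TIL IL10 and 652, 680 and 636 CPM in TIL Ebi3 cells. Ctla4 stood at 2270, 2190 and 1820 CPM, 3320, 3540 and 2740 CPM, and 2320, 2110 and 1690 CPM in the same order. IL10 libraries were above DN libraries without overlap for both genes, and for Tigit (916 to 1440 against 707 to 893 CPM), Lag3 (175 to 346 against 74.1 to 108 CPM) and Havcr2 (138 to 175 against 83.3 to 120 CPM). The share of all genes whose libraries did not overlap was not counted, so the separation is a description only. None of these 5 receptors passed in edgeR in TIL IL10 against DN, where 0.837% of genes were called: Lag3 stood at 1.46 ± 0.49 (adjusted p = 0.262), Ctla4 at 0.66 ± 0.18 (adjusted p = 0.0825), Tigit at 0.59 ± 0.34, Havcr2 at 0.69 ± 0.66 and Pdcd1 at 0.25 ± 0.12. Ctla4 passed in DESeq2 (adjusted p = 0.00651), and Lag3 passed in edgeR without replicate 3 (adjusted p = 0.00437).

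The HVEM receptors were the 2 that fell in tumour IL10 Tregs. Cd160 stood at 22.3, 5.12 and 9.01 CPM in TIL DN and 1.95, 2.79 and 1.75 CPM in TIL IL10 cells, and fell by 2.41 ± 0.46 (adjusted p = 0.00458). Btla stood at 80.6, 87.5 and 84.5 CPM in TIL DN and 28.7, 57 and 49.5 CPM in TIL IL10 cells, and fell by 0.89 ± 0.16 (adjusted p = 0.00368). Every IL10 library lay below every DN library for both genes. Either call was lost without replicate 1 (adjusted p = 0.21 for Cd160 and 0.103 for Btla) and without replicate 3 (adjusted p = 0.165 and 0.136).

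In TIL Ebi3 against DN, where 0.713% of genes were called, 0 receptors passed in edgeR, DESeq2 or limma and 4 had an unadjusted p under 0.05: Lag3 at -1.08 ± 0.49, Cd160 at -1.10 ± 0.43, Btla at -0.40 ± 0.16 and VISTA at -0.33 ± 0.14. In TIL IL10 against Ebi3, where 2.84% of genes were called, 3 receptors were higher in IL10 cells. Lag3 led at 2.54 ± 0.51 (adjusted p = 0.00803), with 175, 346 and 257 CPM against 27.6, 56.7 and 55.7 CPM. Ctla4 was higher by 0.72 ± 0.18 (adjusted p = 0.0243) and VISTA by 0.55 ± 0.14 (adjusted p = 0.0256). The calls for Ctla4 and VISTA were lost without any one of the 3 replicates, and that for Lag3 without replicate 1 or 2. In limma Lag3 (adjusted p = 0.0571) and Ctla4 (adjusted p = 0.0534) did not pass. Without batch in the edgeR fit Lag3 (adjusted p = 0.0948) and Ctla4 (adjusted p = 0.137) were lost, and without TMM VISTA was (adjusted p = 0.0532). Btla (adjusted p = 0.0407) and Cd160 (adjusted p = 0.0494) were lower in IL10 cells in DESeq2, and Btla in limma too (adjusted p = 0.047).

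From lymph node to tumour, Pdcd1 and Ctla4 rose and Btla fell in all 3 sorted Treg populations. In DN cells Havcr2 rose by 4.18 ± 0.77, Tigit by 2.89 ± 0.36, Pdcd1 by 2.55 ± 0.13, Ctla4 by 2.19 ± 0.18 and Lag3 by 1.78 ± 0.50 (adjusted p = 0.0133), and Btla fell by 1.32 ± 0.16, so 5 receptors rose and 1 fell where 23.4% of genes were called. Cd160 did not pass there, at means of 27.6 CPM in ndLN and 12.1 CPM in TIL with overlapping libraries. It passed as lower in limma (adjusted p = 0.0145), and in edgeR without TMM (adjusted p = 0.0405) or without replicate 1 (adjusted p = 0.00631). In IL10 cells 2 rose and 2 fell, where 9.32% of genes were called. There Pdcd1 rose by 1.54 ± 0.12 and Ctla4 by 0.73 ± 0.18, Cd160 fell by 2.21 ± 0.45 and Btla by 1.67 ± 0.17, and Tigit stood at 0.00 ± 0.34 and Lag3 at 0.04 ± 0.48. In Ebi3 cells 4 rose and 2 fell, where 10.3% of genes were called, with Havcr2 at 3.00 ± 0.72, Ctla4 at 1.68 ± 0.18, Pdcd1 at 1.66 ± 0.12, Tigit at 1.21 ± 0.34, Cd160 at -2.56 ± 0.44 and Btla at -1.80 ± 0.17. The calls were lost without 1 replicate for Lag3 in DN and Ctla4 in IL10 cells (each without replicate 1), for Cd160 in IL10 cells (without replicate 3), for Tigit in Ebi3 cells (without replicate 2) and for Havcr2 in Ebi3 cells (without replicate 1 or 3). In limma Lag3 in DN (adjusted p = 0.065), Ctla4 in IL10 (adjusted p = 0.0507), and Tigit (adjusted p = 0.14) and Havcr2 (adjusted p = 0.108) in Ebi3 cells did not pass. With sorted bulk libraries, fewer cells carrying a transcript and less transcript per cell cannot be told apart.

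The difference between the sites was tested itself. The IL10 against DN contrast was smaller in the tumour than in the lymph node by 2.89 ± 0.49 for Tigit (log2fc = -2.89, adjusted p = 0.00115), by 1.46 ± 0.25 for Ctla4 (log2fc = -1.46, adjusted p = 0.000672) and by 1.01 ± 0.17 for Pdcd1 (log2fc = -1.01, adjusted p = 0.000637), where 4.49% of genes were called. Havcr2 stood at -3.12 ± 0.98 (adjusted p = 0.079) and Lag3 at -1.75 ± 0.69 (adjusted p = 0.167), and both passed without replicate 3 (adjusted p = 0.0481 and 0.0298). Each of the 3 calls was lost without 1 replicate, Ctla4 without replicate 1 (adjusted p = 0.0598), Pdcd1 without replicate 3 (adjusted p = 0.0633) and Tigit without replicate 2 (adjusted p = 0.093). For Ebi3 against DN, where 1.61% of genes were called, Pdcd1 alone passed at -0.89 ± 0.17 (adjusted p = 0.00529), and its call was lost without replicate 2 or 3. Cd160 and Btla differed by -1.15 ± 0.60 and -0.35 ± 0.23 between sites for IL10 against DN and did not pass.

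**Figure D2:**
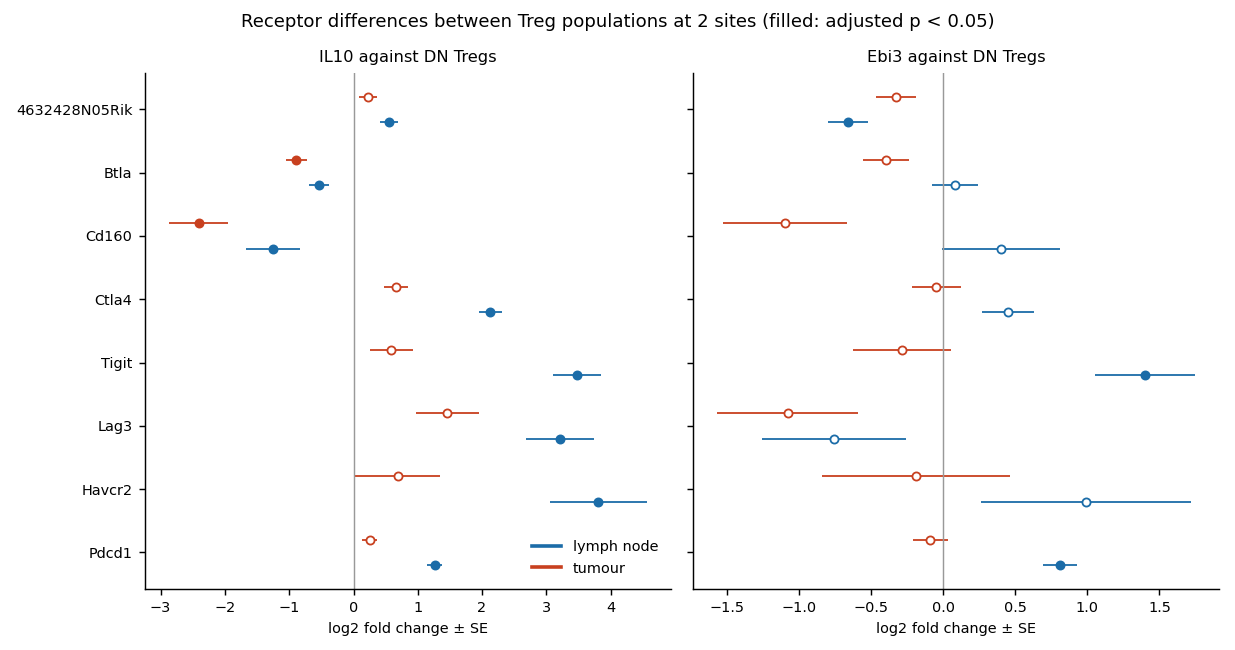
Log2 fold change ± SE of 8 receptors in IL10 against DN Tregs (left) and Ebi3 against DN Tregs (right), in lymph node (blue) and tumour (red), with filled points at an adjusted p under 0.05; Cd244 is left out because it was at or near 0 in the groups. For Tigit the lymph node point sits at 3.48 and the tumour point at 0.59, while Cd160 and Btla lie left of 0 at both sites in the left panel.

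Levels between genes can be set side by side only per length, here as mean CPM per kb of exon. In TIL IL10 Tregs Ctla4 was at 1370 CPM per kb and Tigit at 1310, followed by Pdcd1 at 407, Lag3 at 123, Havcr2 at 58.0, VISTA at 45.1 and Btla at 13.3. In naive DN Tregs Ctla4 was at 147, Tigit at 66, Btla at 61.1, Pdcd1 at 47.4 and VISTA at 46.2 CPM per kb. Btla and VISTA thus stood beside Tigit and Pdcd1 in naive DN cells and well under them in TIL IL10 cells, which differ in both site and sorted population. In naive IL10 cells Tigit was already at 1090 and Pdcd1 at 165 CPM per kb, above VISTA at 57.5 and Btla at 33.8. Cd244, the CD48 receptor of NK and CD8 T cells, reached at most 5.4 CPM in any library of the Treg series and was at 0 in many. VISTA was highest in batch 2 in 10 of 10 groups, as in ndLN IL10 cells with 253, 503 and 203 CPM, and Lag3 and Pdcd1 were highest in batch 2 in 7 of 10 groups. Without batch in the fit, 26 receptor calls were made over the 9 comparisons between sorted Tregs, against 43 with it. Every call for VISTA in the Treg series was lost in that edgeR fit, at an adjusted p of 0.0764 to 0.705. The library ranges of VISTA overlapped in each of those comparisons.

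Receptors that compete with this family for ligands or give the opposite signal were counted from a list of 9 competing or costimulatory receptors. In naive IL10 against DN Tregs 6 rose and 1 fell, where 17.8% of all genes were called, and in ndLN cells 6 rose and 2 fell, where 16.2% were. Icos, a relative of CD28, rose by 3.57 ± 0.16 in naive and by 2.94 ± 0.15 in ndLN cells. Tnfrsf9 (4-1BB) rose by 1.12 ± 0.24 and 2.07 ± 0.24. Cd96, which binds CD155 as TIGIT does, fell by 2.32 ± 0.17 and 2.35 ± 0.17. In the tumour 2 rose and 2 fell, where 0.837% of all genes were called, with Icos at 0.76 ± 0.14 and Cd96 at -1.36 ± 0.17. For Icos the contrast was smaller in the tumour, at -2.18 ± 0.20 for IL10 and -1.84 ± 0.20 for Ebi3 against DN. From lymph node to tumour, Tnfrsf9 rose in DN cells by 3.72 ± 0.26, in Ebi3 cells by 3.00 ± 0.25 and in IL10 cells by 2.23 ± 0.24.

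Of the receptors' ligands 12 of 14 listed genes were tested in the Treg series. In naive IL10 against DN 3 rose and 1 fell, against 17.8% of all genes called, and in the tumour comparison edgeR called 0. Pdcd1lg2 (PD-L2) rose by 0.88 ± 0.22 in naive IL10 cells and 1.01 ± 0.22 in naive Ebi3 cells. In DN cells from lymph node to tumour 5 rose and 0 fell, against 23.4% of all genes called, among them Pdcd1lg2 by 1.66 ± 0.23 and Cd274 (PD-L1) by 1.13 ± 0.18, and Cd274 also rose in IL10 cells by 1.16 ± 0.18 and in Ebi3 cells by 0.81 ± 0.18. Of 12 adaptors and phosphatases tested, 1 rose and 3 fell in naive IL10 against DN, and 3 rose and 6 fell in DN cells from lymph node to tumour, with the same shares of all genes (17.8% and 23.4%). Dgka, a diacylglycerol kinase that dampens antigen receptor signalling, fell by 1.22 ± 0.09 and 1.35 ± 0.09 in these comparisons. Of 11 other inhibitory receptors, 4 rose and 1 fell in naive IL10 against DN, beside that 17.8%, with Cd200r1 at 2.97 ± 0.21 and Entpd1 (CD39) at 1.62 ± 0.17. In TIL IL10 against DN only Entpd1 of these rose, by 0.87 ± 0.16, and 6 rose and 1 fell in DN cells from lymph node to tumour, beside that 23.4%.

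Markers of other cells moved with some of these groups. Myeloid markers (12 genes) summed to 114 to 160 CPM in naive DN, 171 to 245 CPM in naive IL10, 101 to 148 CPM in ndLN DN, 179 to 223 CPM in ndLN IL10 and 167 to 292 CPM in the TIL groups. In Ebi3 cells they summed to 131 to 215 CPM from the naive source and to 146 to 367 CPM in ndLN, where replicate 3 had the highest sum of the Treg series. B cell markers (8 genes) summed to 31.1 to 74.0 CPM in naive DN and 54.1 to 75.3 CPM in naive IL10, and to 20.8 to 35.5 CPM in TIL DN and 21.8 to 34.2 CPM in TIL IL10. The part of either in the receptor values was not tested. Treg markers without Ctla4 were also higher in IL10 cells, at 1360 to 1600 CPM against 946 to 1160 CPM in naive DN.

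In CD8 T cells Ctla4 rose at each step from lymph node to the PD-1 high SP cells, Tigit rose at 2 of these 3 steps and Lag3 at the 2 steps within the tumour, and Cd244 rose from SP to DP cells. Pdcd1 and Havcr2 encode the proteins used for the sort, so their levels are a description. Pdcd1 had a lowest, median and highest of 2.46, 11.6 and 42.2 CPM in NDLN, 1.24, 13.3 and 85.9 in NEG, 47, 315 and 784 in INT, 880, 1270 and 2390 in SP and 652, 1320 and 1740 CPM in DP. Havcr2 had medians of 0, 0.116, 6.5, 28 and 273 CPM in the same order, with 5.74 to 82.2 CPM in SP and 184 to 473 CPM in DP. The transcripts thus followed the protein gates, with SP and DP alike in Pdcd1 range and apart in Havcr2. DP was higher than SP of the same source in 12 of 12 sources for Havcr2 and in 6 of 12 for Pdcd1, a source being the cells of one genotype in one set of libraries.

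The remaining 7 receptors were tested between neighbouring populations over 60 libraries, with each genotype weighted equally. Ctla4 had a lowest, median and highest of 1.67, 5.54 and 16.8 CPM in NDLN, 3.05, 20.9 and 65.5 in NEG, 45.1, 120 and 212 in INT, 116, 259 and 439 in SP and 126, 267 and 472 CPM in DP. It rose at the first 3 steps, by 1.42 ± 0.32, 2.74 ± 0.32 and 1.01 ± 0.30, and stood at 0.29 ± 0.29 from SP to DP. Tigit had medians of 5.56, 28.9, 58.3, 220 and 217 CPM, rose into NEG by 2.53 ± 0.51 and into SP by 1.93 ± 0.48, and stood at 1.22 ± 0.47 (adjusted p = 0.0866) into INT, a value that passed in limma (adjusted p = 0.0421) and without replicate 2 of Il10 (adjusted p = 0.000313). Its SP range of 104 to 387 CPM and DP range of 141 to 329 CPM overlapped throughout. Lag3 had medians of 1.03, 0.485, 5.25, 16.5 and 20.9 CPM and rose into INT by 2.66 ± 0.53 and into SP by 1.69 ± 0.49. From INT to SP, Ctla4, Tigit and Lag3 were each higher in 12 of 12 sources. The share of all genes that agreed across sources to this extent was not counted, so such counts, here and below, are a description only.

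Cd160 was already present in the lymph node and had its highest medians in INT and SP. It had a lowest, median and highest of 29.6, 93.4 and 152 CPM in NDLN, 62.1, 169 and 270 in NEG, 167, 234 and 508 in INT, 175, 252 and 557 in SP and 119, 169 and 344 CPM in DP. It rose into NEG by 0.91 ± 0.19 and into INT by 0.72 ± 0.19 (adjusted p = 0.00928). From SP to DP it was lower in 11 of 12 sources, at -0.49 ± 0.19 (adjusted p = 0.0655), a value that passed with the 12 sources as replicate block (-0.50, adjusted p = 0.0298) and in 5 others of 18 alternatives, DESeq2 and limma among them. VISTA had medians of 174, 134, 126, 63.3 and 53.9 CPM and fell from INT to SP by 0.99 ± 0.19 (adjusted p = 0.000101), in 11 of 12 sources. VISTA and Btla were the receptors with their highest medians outside the PD-1 high populations.

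Cd244 and Btla separated DP from SP cells. Cd244 had a lowest, median and highest of 1.61, 12.7 and 74.5 CPM in SP and 20.7, 76.7 and 142 CPM in DP, and rose by 2.49 ± 0.50 (adjusted p = 0.000387), in 12 of 12 sources. Btla had 44.8, 99.3 and 158 CPM in SP and 7.57, 34.2 and 106 CPM in DP, and fell by 1.34 ± 0.18 (adjusted p = 4.4e-07), also in 12 of 12 sources. The ranges of the populations overlapped for both genes, so the difference shows within sources. Cd244 was at 0 in 9 of 12 NDLN libraries and at a median of 4.66 CPM in NEG, a step that passed the test but has no fold because of the zeros. With the yfp libraries alone Btla still fell (adjusted p = 0.00745), while Cd244 stood at 1.17 (adjusted p = 0.337).

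By step, 4 of the 7 receptors rose from NDLN to NEG, where 9.21% of 14734 genes rose and 4.83% fell, 3 rose from NEG to INT, where 11.7% were called, 3 rose and 1 fell from INT to SP, where 26.9% were called, and 1 rose and 1 fell from SP to DP, where 18.5% were called. Altogether 13 calls were made with all genotypes and 5 with the yfp libraries alone. The remaining calls in yfp were Ctla4 and Lag3 into INT, VISTA into SP, Btla into DP and Cd244 into NEG. Without replicate 2 of Il10, whose other NEG library had Tigit and Cd244 at 0, the calls for Tigit and Cd244 into NEG and for Ctla4 and Lag3 into SP were lost, and without replicate 1 of Il10 that for Cd160 into INT was lost (adjusted p = 0.256).

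**Figure D3:**
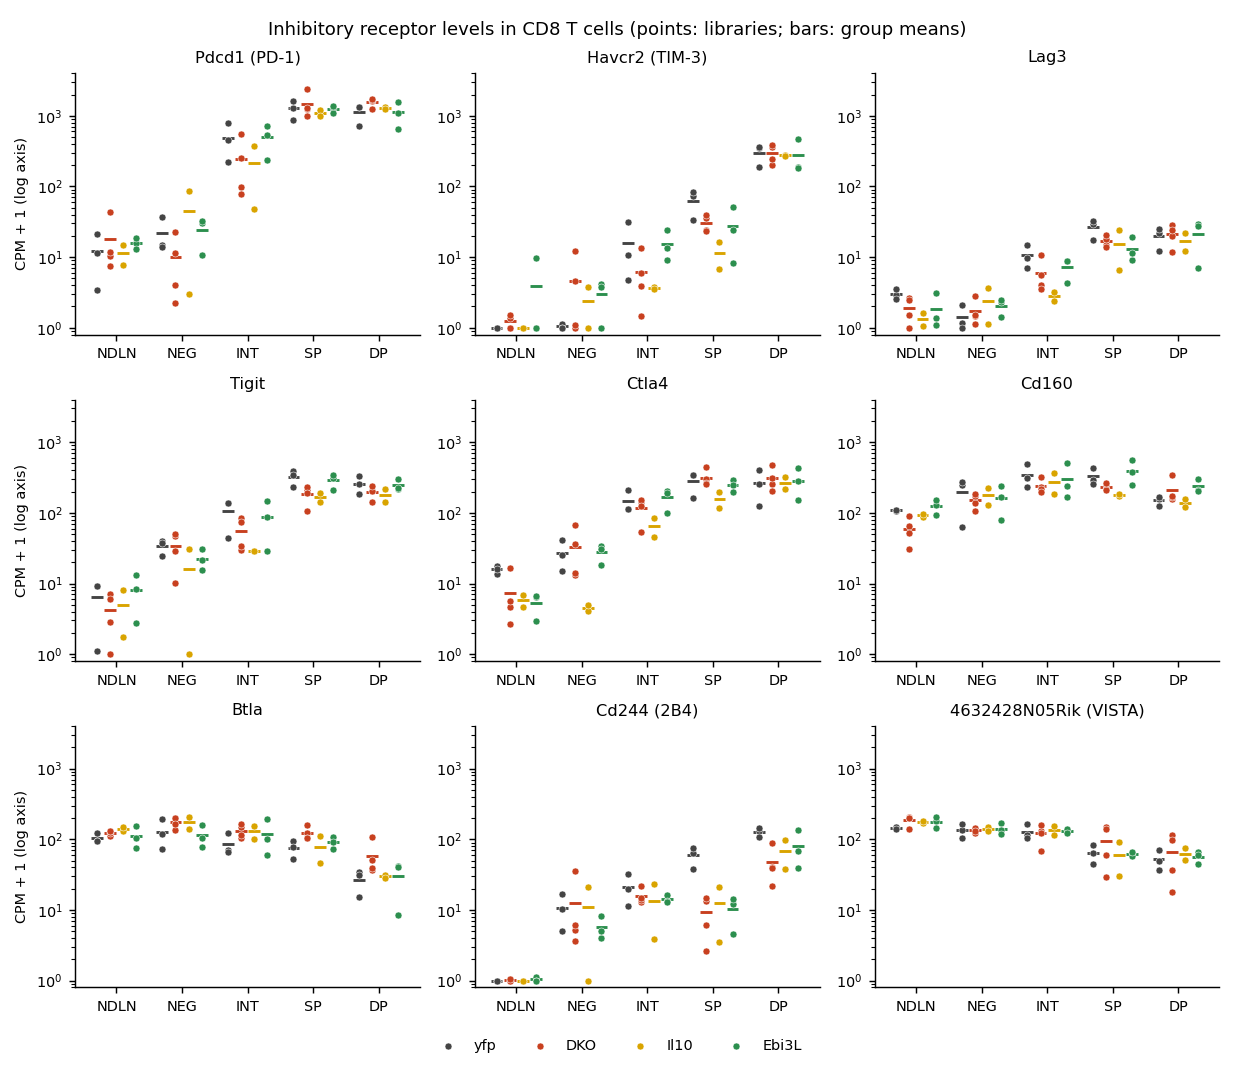
Level of each receptor in CD8 T cells, as CPM + 1 on a log axis, with 1 point per library and a bar at the group mean, for 5 populations and 4 genotypes (yfp 3, DKO 4, Il10 2 and Ebi3L 3 libraries). Medians of Tigit and Ctla4 climb from NDLN to SP, that of Lag3 climbs from NEG on, that of Cd244 reaches 76.7 CPM in DP, and Btla and VISTA have their lowest medians in DP.

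**Figure D4:**
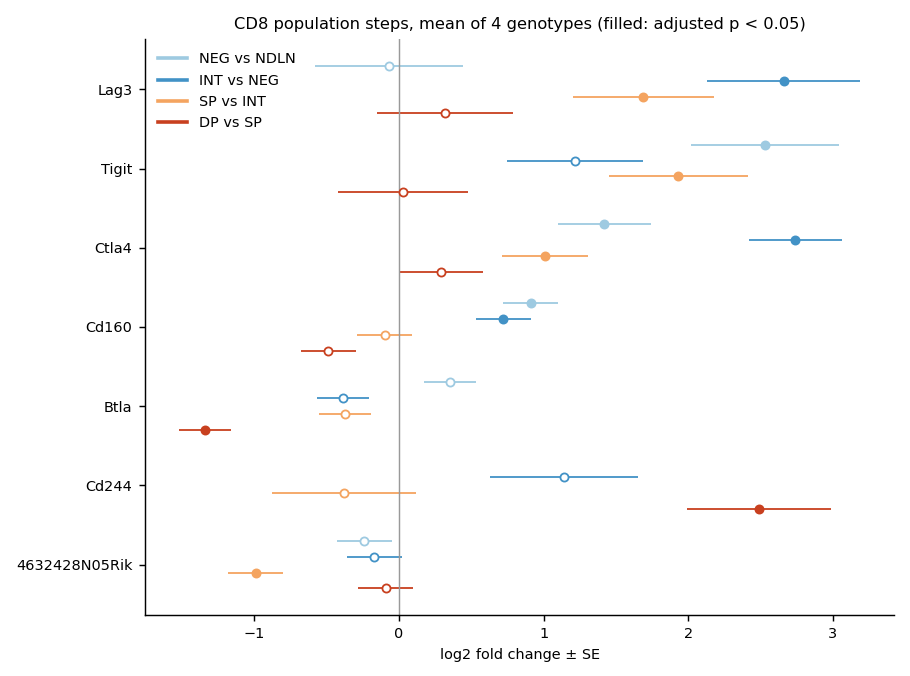
Log2 fold change ± SE of 7 receptors at the 4 steps between neighbouring CD8 populations, as the mean of 4 genotypes, with filled points at an adjusted p under 0.05; the NDLN to NEG point of Cd244 is left out because most NDLN libraries were at 0. In DP against SP the points of Cd244 (2.49) and Btla (-1.34) are filled and the others are open.

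Per kb of exon, Pdcd1 led in DP cells with a median of 686 CPM per kb, followed by Tigit at 236, Ctla4 at 115, Havcr2 at 100, Cd160 at 63.9, Cd244 at 15.7, VISTA at 10.7, Btla and, last, Lag3 at 9.91. Lag3 was thus among the low members in DP cells, whereas in TIL IL10 Tregs it stood above Havcr2, VISTA and Btla.

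Markers of other cells were examined beside these steps. Of the Treg list, Foxp3 had a median of 0 in NDLN, NEG and INT, 0.0521 CPM in SP and 0.0937 CPM in DP, with at most 3.08 CPM in any library. Cd4 had a median of 0 in all 5 populations, but the list of 3 CD4 T cell markers was not absent. It summed to 0.195 to 10.8 CPM in NDLN, 1.43 to 29.4 in NEG, 7.72 to 64.9 in INT, 3.79 to 42 in SP and 2.51 to 65.1 CPM in DP. In SP cells these sums were 25.8, 17.1, 42 and 31.8 CPM in DKO and 6.04, 7.94 and 4.65 CPM in yfp. Il2ra rose with Ctla4 and Tigit in level, with medians of 1.99 CPM in NDLN and 112 CPM in DP. NK markers without Cd244 (7 genes) summed to a median of 6.25 CPM in NDLN, 29.9 in NEG, 20.9 in INT, 5.40 in SP and 2.85 CPM in DP, and Ncr1, which defines NK cells, was at 0 in every SP and DP library. The highest NK sum among SP and DP libraries was 46.8 CPM, in DP cells of Ebi3L replicate 3, where Cd244 was at 38.4 CPM. Myeloid markers (12 genes) summed to 66.1 to 213 CPM in NDLN, 155 to 1420 CPM in SP and 156 to 791 CPM in DP, of which Cst3 made up most. The highest myeloid sums were in 2 SP libraries of Ebi3L, at 1420 and 1120 CPM. B cell markers went from 43.4 to 105 CPM in NDLN to 0 to 22.3 CPM in DP. The part of the CD4 T cell, NK, myeloid and B cell markers in the receptor values was not tested.

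The lists are read beside the shares of all genes called, which were 11.7% into INT, 26.9% into SP and 18.5% into DP. Of the 9 competing or costimulatory receptors 6 rose and 0 fell from NEG to INT, with Tnfrsf4 (OX40) at 3.36 ± 0.43 and Icos at 1.09 ± 0.13. From INT to SP 3 rose and 1 fell, with Tnfrsf4 at 3.02 ± 0.41 and Tnfrsf9 at 2.30 ± 0.28. From SP to DP 1 rose and 3 fell, Tnfrsf9 at 1.51 ± 0.27 and Icos at -0.85 ± 0.13. Among 12 ligands tested 4 rose and 0 fell from NEG to INT, including Cd80 at 3.71 ± 0.84, Cd86 at 1.51 ± 0.33 and Pdcd1lg2 at 0.94 ± 0.27. From INT to SP 2 rose and 3 fell, and from SP to DP 1 rose and 2 fell. Among 13 adaptors and phosphatases 2 rose and 5 fell from INT to SP, and 0 rose and 3 fell from SP to DP. The ligands and adaptors called into DP, 3 of 12 and 3 of 13, were thus near the share of all genes. Dgka fell at all 4 steps, by 0.62 ± 0.15, 0.60 ± 0.16, 0.88 ± 0.16 and 0.99 ± 0.16. Sh2d1a, which encodes SAP, the adaptor of 2B4, rose into SP by 0.85 ± 0.15 and fell into DP by 0.61 ± 0.14, the step at which Cd244 rose. Of 11 other inhibitory receptors 5 rose and 1 fell into NEG, where 9.21% of all genes rose and 4.83% fell, and 1 rose into DP.

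The study's question for CD8 cells was how loss of IL-10 or IL-35 in Tregs relates to these populations. The genotypes were compared with yfp within each population, for 9 receptors in 15 comparisons. Of these 135 values 0 passed in the edgeR fit of all 60 libraries with the filter on low counts. In that fit 14 (10.4%) had an unadjusted p under 0.05, against 5.73% over all genes. Without the filter edgeR called 30, where 0.84% of all genes were called, and DESeq2 called 4 and limma on the deposited log2 values 1. The DESeq2 calls were Ctla4 in NEG cells of Il10, and Havcr2 in NDLN cells of DKO and Ebi3L and NEG cells of DKO. Havcr2 was at 0 in the yfp NDLN libraries and at most 0.148 CPM in yfp NEG, so these calls rest on few counts. The limma call was Lag3 in NEG cells of Il10, at means of 1.37 CPM against 0.439 CPM in yfp. All genes gave few calls in edgeR as well: in NDLN 0%, 0.00679% and 0.00679% for DKO, Il10 and Ebi3L, in NEG 0%, 0.163% and 0%, in INT 0.0136%, 0% and 0%, in SP 0.0339%, 0.0204% and 0.0136%, and in DP 0.238%, 0% and 0.0475%. Leaving out Havcr2 and Cd244, which were at 0 in many libraries, the median of 2 SE over the 105 remaining values was 1.18 on the log2 scale. That is the width of a typical interval on either side and no limit of detection, since larger differences also missed the adjusted threshold. No gene of the 4 lists (ligands, competing or costimulatory receptors, adaptors and other inhibitory receptors) was called between genotypes.

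A few values are given by genotype as a description, and none of them passed in the edgeR fit of all 60 libraries with the filter on low counts. Without that filter edgeR called Cd244 in SP cells of all 3 knockouts and in DP cells of DKO. It also called Havcr2 in SP cells of DKO, Ctla4 in NEG cells of Il10 and Btla in DP cells of DKO. The share of all genes whose libraries separated by genotype was not counted. Cd244 stood at 62.5, 74.5 and 37.2 CPM in SP cells of yfp, at 12.2, 1.61, 5.14 and 14 CPM in DKO, at 2.48 and 20.3 CPM in Il10 and at 11, 13.1 and 3.62 CPM in Ebi3L. All 9 knockout libraries lay below all 3 yfp libraries, with differences of -2.76 ± 0.88 for DKO (adjusted p = 0.632), -2.16 ± 1.11 for Il10 and -2.70 ± 0.98 for Ebi3L (adjusted p = 0.81), which share the yfp libraries. In DP cells Cd244 stood at 132, 142 and 107 CPM in yfp, 39.2, 20.7, 38.5 and 86.4 CPM in DKO, 37 and 95.5 CPM in Il10 and 136, 66.9 and 38.4 CPM in Ebi3L, where the Ebi3L libraries overlapped those of yfp. Havcr2 in SP cells stood at 71.2, 82.2 and 33 CPM in yfp and 23, 34.4, 22.1 and 38.4 CPM in DKO, which overlapped.

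Ctla4 in NEG cells stood at 14, 39.7 and 24.7 CPM in yfp and 3.05 and 3.95 CPM in Il10, a difference of -3.09 ± 0.77 (adjusted p = 0.0933 in edgeR, 0.000437 in DESeq2). The same Il10 group disagreed within itself for other receptors, with Tigit at 0 and 29.7 CPM and Pdcd1 at 85.9 and 1.98 CPM. Btla in DP cells stood at 32.9, 30.4 and 14.1 CPM in yfp and 35.5, 50.5, 106 and 37.7 CPM in DKO, all above yfp, at 0.98 ± 0.34 (adjusted p = 0.434). The difference of DP against NEG between a knockout and yfp was also tested, where 0.00679% of genes were called for DKO, 0% for Il10 and 0.0136% for Ebi3L. Of the receptors 0 passed in DESeq2, limma or the edgeR fit of all 60 libraries with the filter, where 2, 1 and 1 had an unadjusted p under 0.05 in edgeR.

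**Figure D5:**
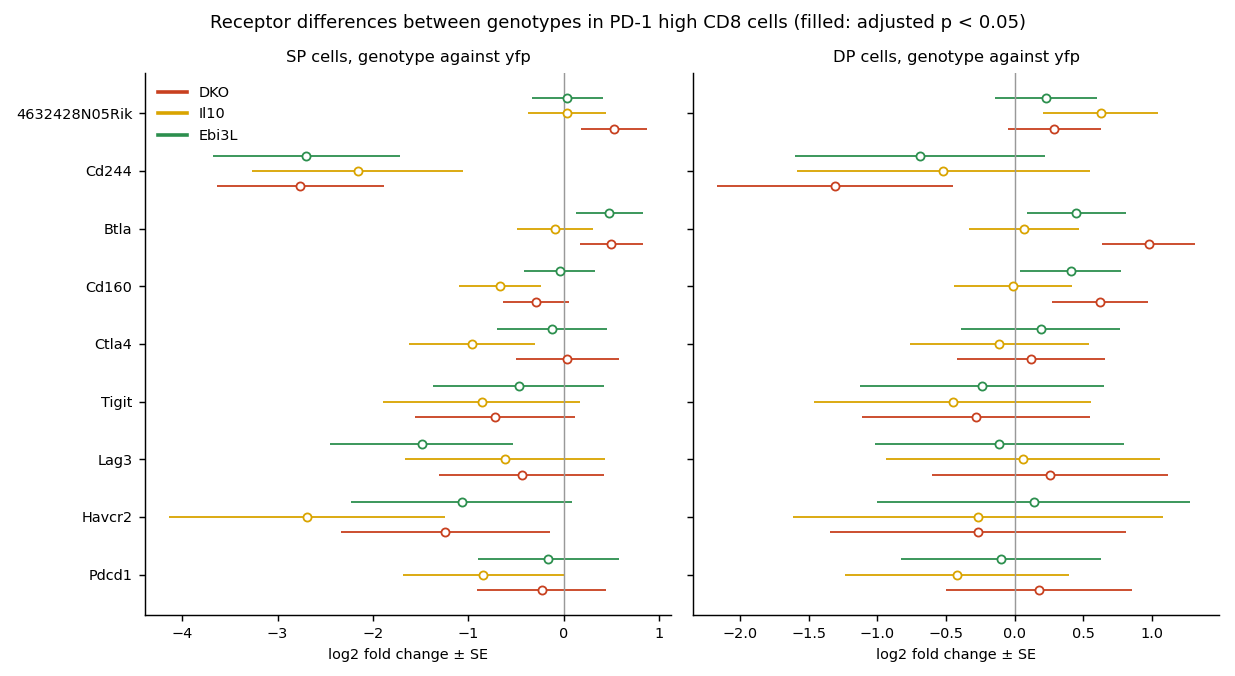
Log2 fold change ± SE of the 9 receptors in SP (left) and DP (right) CD8 cells of DKO, Il10 and Ebi3L against yfp, with filled points at an adjusted p under 0.05. All points are open; those of Cd244 in SP cells lie farthest left apart from Havcr2 of Il10, between -2.76 and -2.16.

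Across group means of log2(CPM + 1), the genes most like each receptor were found among 11187 genes over the 30 groups of both series. The groups share the depth and kit of their series, so the correlations are a description. Ctla4 and Tigit were among each other's 3 most like genes, with r = 0.959, and over the 10 Treg-series groups r was 0.979 and over the 20 CD8 groups 0.962. Lag3 was most like Ctla4 (0.934), Pdcd1 most like Plscr1 (0.974), Havcr2 most like Yaf2 (0.936), Cd160 most like Atp5g2 (0.923), Btla most like Elk4 (0.933), Cd244 most like Tmem163 (0.941) and VISTA most like Klf13 (0.942). Cd80, a ligand of CTLA-4, was the third gene for Havcr2 (0.929), and Il2ra the third for Ctla4 (0.954). Between receptors the lowest values were -0.904 for Btla and Cd244 over the Treg groups, where Cd244 was near 0, and -0.900 for Lag3 and VISTA over the CD8 groups.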

How the data were processed

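The deposited table holds raw counts per gene for 90 libraries. Per the submitters' processing notes, the authors aligned reads with STAR to mm10 and counted with featureCounts from Subread, and limma is also named. The sources used here give no versions, annotation or strand setting. The authors also deposited filtered log2 values for each series, which served one alternative. Every column could be matched to a labelled library, leaving 0 unmatched.

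Tests used edgeR 4.0.16 in R 4.3.3 with TMM scaling, filterByExpr and a robust quasi-likelihood fit, with Benjamini-Hochberg adjustment over all genes at 0.05. The Treg fit used 30 libraries in 10 groups with batch as a term. The CD8 fit used 60 libraries in 20 groups of population and genotype with batch, and its steps weight the 4 genotypes equally. Batches 1 and 3 held yfp and Ebi3L, and batches 1 and 2 held DKO and Il10. CPM was computed on library totals without TMM. Alternatives were DESeq2 1.42.0, limma 3.58.1 on the deposited log2 values, no TMM, no filter, other blocks and each replicate left out.

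The receptors and the lists of genes were chosen with earlier results of these data known. Named genes are the 9 receptors in every comparison and, per list and family of comparisons, at most the 3 called genes with the largest change, along with the 3 genes most like each receptor among those with a mean of at least 5 CPM in 1 group (pseudocount 1).

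In the labels the number of a Treg library also names its batch, which pairs libraries across groups. Deviations from group means correlated at a median of 0.26 over 135 same-batch pairs of different groups (lowest 0.11), against -0.21 over 270 other pairs. In CD8 cells libraries of one source had a median of 0.32 over 120 pairs, and the 12 sources as a block were an alternative. The labels do not tie libraries to separate animals, and p-values then reflect only the spread among these samples, some of which may be technical. A chi-square comparison of the 95 replicate pairs gave 34.7 to 651 per gene, and 0 of them lay within sampling noise. The reads carried no molecular identifiers, so the level of 3 counts covers counting error only.

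The test was checked on simulated counts. Of changes of 1 log2 unit it recovered 14% in TIL IL10 against DN, 14% in DP DKO against yfp and 93.4% in DP against SP. For changes of 2 log2 units these were 94.9%, 88.3% and 100%. False calls made up 2.06% to 2.73% of calls. The counts were drawn with the same spread for every gene and no batch effect, so these rates are not those of the data.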

Additional observations from a re-analysis of the deposited data

Results flagged for a closer look

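The IL10 against DN contrast of Tregs differed between tumour and lymph node in a test of that difference, at -2.89 for Tigit, -1.46 for Ctla4 and -1.01 for Pdcd1 on the log2 scale. The Ebi3 against DN contrast differed for Pdcd1, at -0.89. All 4 used 3 libraries per group, and each was lost without at least 1 replicate.

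Among groups of 4 libraries, which were the DKO groups alone, 4 of 45 receptor values had 1 library far from the others by Dixon's test, which chance gives in about 1 in 20. Pdcd1 was at 42.2 CPM in NDLN DKO replicate 2, against 6.51 to 10.9 CPM in the other 3. VISTA (4632428N05Rik) was at 140 CPM in that same library, against 200 to 207 CPM. Cd160 was at 344 CPM in DP DKO replicate 3, against 157 to 173 CPM, and CD4 T cell markers summed to 65.1 CPM in that library. Cd244 was at 34.1 CPM in NEG DKO replicate 3, against 2.67 to 5.08 CPM, and NK markers without Cd244 summed to 88.6 CPM there. The part of these markers was not tested.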

How the results depend on the processing

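Over the 9 comparisons between sorted Tregs 43 receptor values passed. Batch as replicate block was part of that fit; with no replicate block 26 passed, and leaving out 1 replicate gave 28 to 32. DESeq2, limma, no TMM and no filter gave 39 to 47. Between sites 16 passed, and 14 to 19 did in the alternatives. In the CD8 steps 13 passed, 20 without the low-count filter, 5 in yfp libraries alone and 14 with the 12 sources as replicate block, and leaving out 1 source gave 11 to 14. Between genotypes 0 passed, with 4 in DESeq2, 30 without the filter (where 0.84% of all genes were called), 1 in limma and 0 to 3 with 1 source left out. The 3 appeared without Il10 replicate 2. For differences between contrasts 4 passed, 10 without the filter, 3 with no replicate block for Tregs and the sources as replicate block for CD8 cells, and 2 to 6 with 1 replicate left out. The cause of these shifts was not tested. With 1 Il10 source left out, a lone library is assumed to vary like the other groups.

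Of 352 receptor values 82 passed, 39 of them in every alternative, 43 lost the call in at least 1, and 61 others gained it in at least 1. Direction reversed in 2, both without Il10 replicate 2: Tigit from NDLN to NEG at -0.62 (3.33 without Il10 replicate 1) and Cd244 for DP against NEG, Il10 minus yfp, at 9.15 (-1.38 without Il10 replicate 1). limma on the deposited values shifted the median of all genes by over 0.1 in the tumour against lymph node comparisons, to -0.117 in DN, -0.2 in IL10 and -0.196 in Ebi3 Tregs.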
